A study of Mus musculus with 2 samples.

Results

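The genes described here encode the proteins of the small subunit of the cytosolic ribosome. They were taken by name: every non-control spot whose gene name was Rpsa or began with Rps and a digit, leaving out the Rps6k kinases. The name caught 35 of the 26571 gene names on the array, through 75 of 43379 spots and 66 of 41174 probes of 60 bases. Of these 35 genes, 31 are core proteins of the subunit, 14 in its head and 17 in its body and platform, and 4 are relatives that share the name. The family was picked because its ratios were lower with HMPA in these same data, so its direction below is a description and carries no test.

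The ratios came from kidney RNA of male CD-1 mice. Both conditions ate an AIN-93G diet with 0.2% adenine by weight, a kidney disease model in which adenine metabolites crystallise in the tubules. One condition had adenine alone. The other had 2% HMPA by weight added. HMPA is a phenolic acid, 3-(4-hydroxy-3-methoxyphenyl)propionic acid. By the labels the diets began at 7 weeks of age and lasted 1 week, whereas the titles give 12 weeks of age and 5 mice and do not say whether RNA was pooled. Both RNAs were hybridised together on 2 dual-colour Agilent arrays. Array 1 had adenine in Cy3 and HMPA in Cy5, and array 2 the reverse. Separate animals for each array are not named in the labels, nor do they say whether both arrays share the same extracts. Here both arrays count as repeats of 1 RNA sample from each condition, which is an assumption, so differences between animals could not be assessed and no p-value is given. If the extracts differed, the distance between the arrays also holds the spread between extracts. Mice without adenine were not included.

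The small subunit reads the messenger RNA during translation. Its head and body close around the message at the decoding centre, its beak and shoulder form the entry channel, and its platform lies by the exit channel and the anticodon end of the transfer RNAs. Most ribosomal protein messages carry a run of pyrimidines at their 5′ end, the terminal oligopyrimidine or TOP motif, through which mTORC1 and LARP1 control their translation as a group. The arrays measured the amount of these messages, not their translation and not ribosomes.

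Each value rests on short probes, and those of the genes at both ends of the order are shown with the nearest relative so that the measured piece of each message is known. Positions are as deposited, on build mm9, all letters are in lower case because no base is singled out, and no exon or UTR was assigned on that build. The Rps12 probe lies at chr10:23505016-23505075 and the Rps20 probe at chr4:3761639-3761698, both on the minus strand. The Rps10 probe lies at chr17:27771085-27771144 on the minus strand. The Rps27l probe spans chr9:66795486-66797176 on the plus strand, longer than the probe itself, as is the case for 14 measured probes of the family.
Rps12: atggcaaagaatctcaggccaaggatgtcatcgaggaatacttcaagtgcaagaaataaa
Rps20: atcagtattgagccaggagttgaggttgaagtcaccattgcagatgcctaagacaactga
Rps10: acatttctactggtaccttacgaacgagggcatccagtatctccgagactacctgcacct
Rps27l: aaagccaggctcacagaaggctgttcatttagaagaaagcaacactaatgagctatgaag

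All 31 core genes had a lower signal with HMPA on both arrays as normalised here, although Rps10 and Rps2 lay above 0 on array 1 under some other normalisations. Ratios are given as log2 of HMPA with adenine over adenine alone, so -1 is a level 2-fold lower, and the figure after ± says how far either array lay from the mean of both. The core genes had a median ratio of -0.91 on array 1, -1.49 on array 2 and -1.16 over both, which is 2.24-fold lower. Their mean ratios ran from -1.57 for Rps12 to -0.64 for Rps10, that is from 33.7% to 64.4% of the adenine level. The median of all 16698 measured genes was -0.037.

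A gene was counted as lower by the 2-fold rule if its mean ratio was at least 2-fold down and each array at least 1.5-fold down, and by the 1.5-fold rule if these were 1.5-fold and 1.2-fold. Of the 35 genes, 20 were lower by the 2-fold rule, against 7.72% of all measured genes. By the 1.5-fold rule 32 were lower, against 16.3%, and 33 were below 0 on both arrays, against 42.9%. None was above 0 on both arrays, against 35.9% of all genes, and none was higher by the 2-fold rule, against 6.64%, or the 1.5-fold rule, against 13.7%. Because the choice of the family used this contrast, nothing is read from these counts. The 19 core genes under the 2-fold rule comprised 7 of 14 in the head and 12 of 17 in the body and platform. The head had a median of -1.19 and the body and platform -1.16, a difference smaller than the distance between the arrays.

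**Figure D1:**
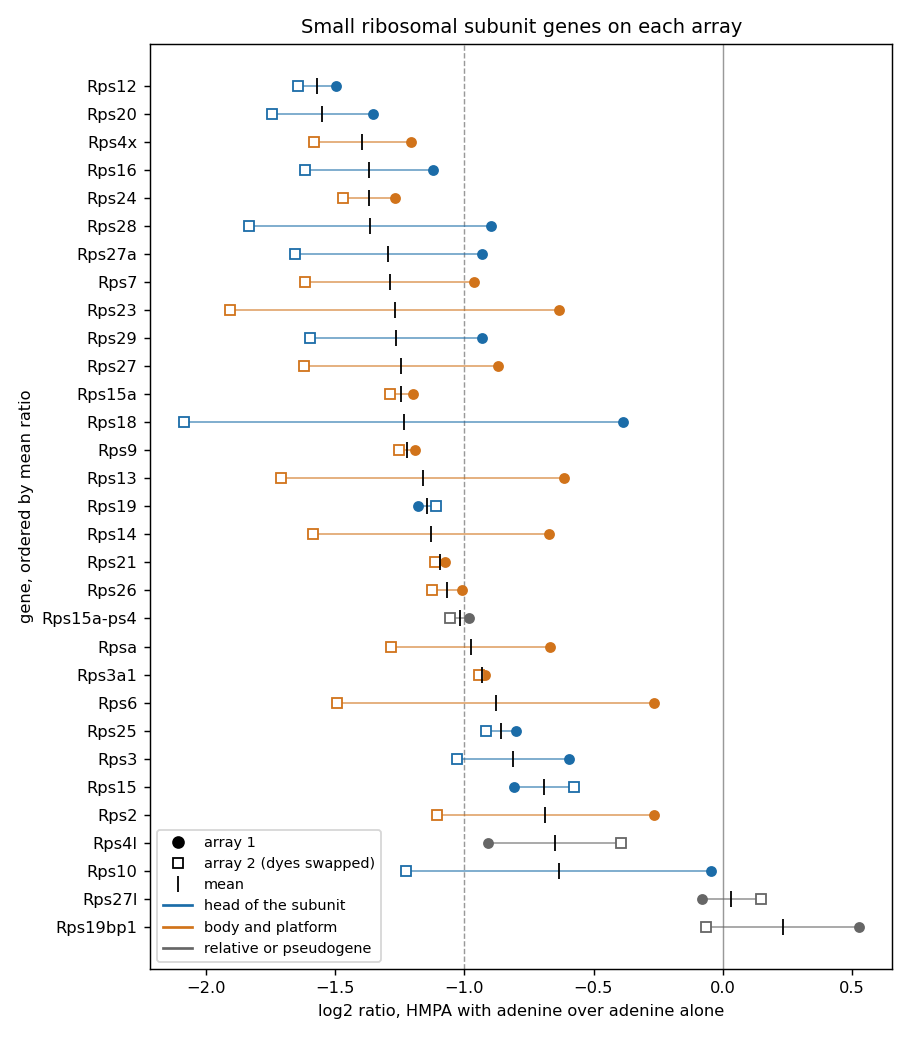
Log2 ratio of HMPA with adenine over adenine alone (horizontal axis) for 31 of the 35 genes, ordered by mean. Filled circles are array 1, open squares are array 2 with the dyes swapped, and the black tick is their mean; the dashed line marks -1, a 2-fold lower level. As normalised here, the 27 core genes drawn lie left of 0 on both arrays (Rps10 and Rps2 cross it on array 1 under some other normalisations), and the square lies left of the circle for 25 of them.

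In the head, the lowest ratio belonged to Rps12, a protein of the beak. Its normalised log2 signal was 15.67 with adenine and 14.17 with HMPA on array 1, and 15.77 and 14.13 on array 2. On each array the HMPA channel lay below the adenine channel. The ratios of -1.50 and -1.64 gave a mean of -1.57 ± 0.07, 2.97-fold lower. Signals were normalised within each array only, so channels of different arrays also differ by array brightness. The core adenine median, for instance, was 14.75 on array 1 and 15.23 on array 2. Rps20, a head protein that is ubiquitylated on stalled ribosomes, had log2 signals of 15.61 and 15.83 with adenine and 14.25 and 14.09 with HMPA. Its mean ratio was -1.55 ± 0.20, also with the HMPA channel below the adenine channel on each array. Rps16, whose tail reaches the transfer RNA in the peptidyl site, had 15.43 and 15.79 with adenine against 14.30 and 14.18 with HMPA. Its ratio was -1.37 ± 0.25.

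The other head genes split by how well the arrays matched on the probe that stands for each gene. Rps19, the gene most often mutated in Diamond-Blackfan anaemia, had -1.18 on array 1 and -1.11 on array 2. Rps25, which some viral messages need to start translation, had -0.80 and -0.92. With these probes both arrays gave about the same size of difference. A further probe of Rps19 above the median signal had -0.61 and -1.14.

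Other head genes had wide gaps between the arrays on the probe used. Rps18, which contacts the large subunit, had -0.38 on array 1 and -2.08 on array 2. Its mean of -1.23 ± 0.85 is past 2-fold, but it did not meet the 2-fold rule because of array 1. Rps28, at the messenger RNA exit, had -0.89 and -1.83, and met the rule with a mean of -1.36 ± 0.47. Further probes above the median signal had narrower gaps. That of Rps18 had -0.67 and -1.28, and those of Rps28 had -1.15 and -1.49, and -1.14 and -1.19.

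Rps27a, made as a fusion with ubiquitin, had ratios of -0.93 and -1.65. Rps29, a small zinc-binding protein, had -0.93 and -1.60. The probe of Rps29 is placed by the files on chromosome 2, whereas RefSeq gives the gene on chromosome 12, so which copy it detects was not settled.

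At the upper end of the head genes stood Rps3, Rps15 and Rps10. Rps3, which lines the messenger RNA entry channel, had log2 signals of 14.49 and 15.01 with adenine and 13.89 and 13.98 with HMPA. Its ratio was -0.81 ± 0.22, with the HMPA channel lower on each array. Rps15, near the decoding centre, had 12.10 and 12.68 with adenine against 11.29 and 12.10 with HMPA. Its HMPA channel of array 2 reached its adenine channel of array 1, a comparison across arrays, and its ratio was -0.69 ± 0.12. Rps10, on the head near the entry channel and a target of ubiquitin on stalled ribosomes, had 13.30 and 13.25 on array 1, a ratio of -0.047. On array 2 Rps10 had 14.18 with adenine and 12.95 with HMPA, a ratio of -1.22. Its difference therefore rests on array 2 alone, and Rps10 is the 1 core gene that met neither rule.

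In the body and platform, Rps4x was lowest. This X-linked protein had log2 signals of 15.43 and 15.60 with adenine and 14.22 and 14.02 with HMPA. Its ratio was -1.39 ± 0.19, 2.63-fold lower. Rps24, an anaemia gene of the body, had 14.99 and 15.24 with adenine against 13.72 and 13.77 with HMPA, and a ratio of -1.37 ± 0.10. In both genes the HMPA channel lay below the adenine channel on each array.

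For several body proteins the probe that stands for the gene gave nearly the same ratio on both arrays. Rps9, which helps set the accuracy of decoding, had -1.19 and -1.25. Rps15a, also of the body, had -1.20 and -1.29. Rps21 had -1.07 and -1.11. Rps26, which touches the message at the exit channel, had -1.01 and -1.12. Rps3a1, a platform protein that binds initiation factor eIF3, had -0.92 and -0.94, the closest match of the family, and at ± 0.01 lay just above a 2-fold lower level. In all, each array lay within 0.1 of the mean for 11 of the 31 core genes. The match belongs to the probe used and not always to the gene. Further probes above the median signal had -0.76 and -1.38 for Rps9, and -0.82 and -1.34 for Rps15a. For Rps3a1 such a probe had -1.14 and -0.61. Those of Rps21 had -1.07 and -1.01, and -1.10 and -0.73.

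Other body and platform genes were lower on array 2. Rps23, at the decoding centre, had -0.63 on array 1 and -1.90 on array 2. Rps13 had -0.61 and -1.71. Rps14, the platform protein lost in the 5q deletion syndrome, had -0.67 and -1.58. Rps7, which can bind Mdm2, had -0.96 and -1.62. Each of these 4 was below 0 on both arrays, and 3 of them, Rps7 apart, lay more than 0.4 from their mean on each array.

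Rps6, the substrate of the S6 kinases, had -0.26 on array 1 and -1.49 on array 2. Its log2 signals were 13.55 and 14.47 with adenine and 13.28 and 12.98 with HMPA, a mean ratio of -0.88 ± 0.61. Rpsa, also known as the laminin receptor, had -0.67 and -1.28. Its mean of -0.98 was the nearest to 2-fold among the core genes left out by the size of the mean.

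Rps2, which lines the entry channel in the body, was the highest of this group. It had log2 signals of 15.16 and 15.86 with adenine and 14.90 and 14.75 with HMPA, a ratio of -0.69 ± 0.42. Rps27, a zinc-binding platform protein, had -0.87 and -1.62. The files place its probe at chr9:114891515-114891574 on the minus strand, whereas RefSeq has the gene on chromosome 3. The first 30 bases of that probe are shown so that its source can be traced.
Rps27: ctgaaagcccctgattgaagatgagtggga

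The small subunit proteins whose genes carry other names were also lower. Fau, made as a ubiquitin-like fusion, had -0.55 and -1.49, a mean of -1.02 ± 0.47, and did not meet the 2-fold rule. Rack1, the scaffold protein on the back of the head, had -0.68 and -1.61, a mean of -1.15 ± 0.47, and met it.

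The 4 relatives did not move as 1 group. Rps27l, a paralog of Rps27 that p53 can induce, had log2 signals of 13.48 and 13.40 on array 1 and 13.64 and 13.78 on array 2, adenine first. Its ratios of -0.080 and 0.15 lay on both sides of 0, with a mean of 0.033 ± 0.11. Rps27 had a mean of -1.25 ± 0.38 and lay below Rps27l on each array. Their probes share no run longer than 6 of 60 bases. Probes were compared with each other and not with the messages, so whether either reads the other gene was not settled.

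Rps15a-ps4, annotated as a pseudogene of Rps15a, had -0.98 and -1.05, a mean of -1.02 ± 0.04. Its parent Rps15a had -1.24 ± 0.05, and the longest run that their probes share is 5 bases. That does not show whether the Rps15a-ps4 probe also matches the Rps15a message, so its value may not be a separate reading. Rps4l, a relative of Rps4x, had -0.91 and -0.39 from a probe printed 10 times. The SD between those spots was 0.17 on array 1 and 0.12 on array 2, after leaving out 1 and 2 spots marked as unreliable, so the arrays differed by more than the spots within an array. Rps19bp1, which binds Rps19 but is not a protein of the mature subunit, had 0.53 and -0.064, a mean of 0.23 ± 0.29. A second measured probe of Rps19bp1 had the opposite sign on each array, -0.41 and 0.29, a mean of -0.058 ± 0.35.

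The 66 probes of the family included some that barely rose above background. Of these, 61 were measured, that is well above background on both arrays for the same condition, and 58 were so in all 4 channels. Every gene kept at least 1 probe and none of the spots was saturated. The 49 probes at or above the median log2 signal of all measured probes, 7.56, had a median ratio of -1.04 and ranged from -1.57 to 0.23, and 46 were below 0 on both arrays. The 12 dimmer probes, from 11 genes, had a median of -0.10, ranged from -0.33 to 0.24, and only 5 were below 0 on both arrays. Each of the 11 genes also had a bright probe, which is the one its value above comes from. Where a core gene had more than 1 bright probe, as 10 genes did with 23 probes, the spread between them ran from 0.05 for Rps3a1 to 0.45 for Rps3, with a median of 0.19. In 4 of these 10 the probes differed by less than the arrays did, Rps2, Rps18 and Rps28 among them, and in the other 6 by more.

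**Figure D2:**
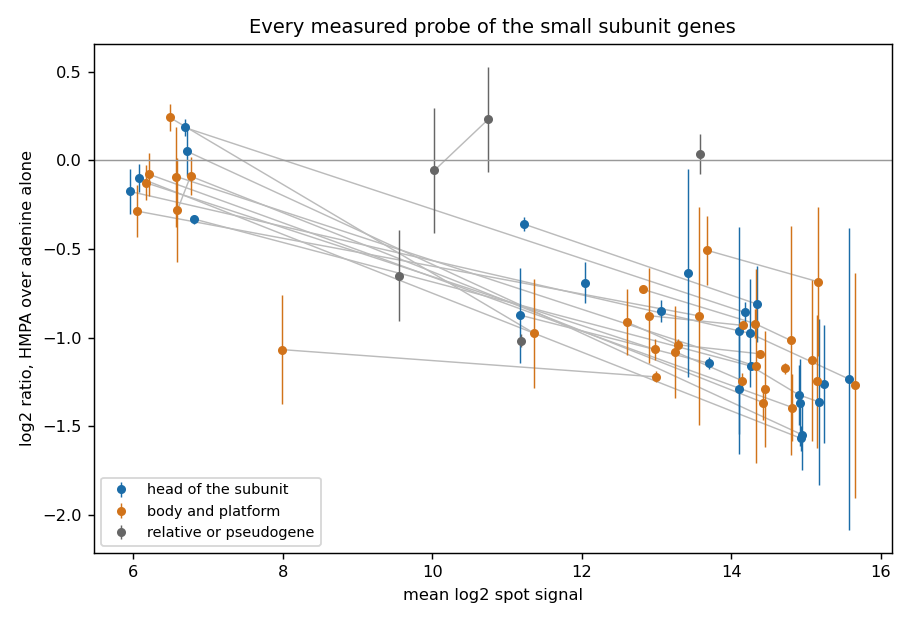
Mean log2 ratio of HMPA with adenine over adenine alone (vertical axis) against mean log2 spot signal (horizontal axis) for the 61 measured probes; bars reach the value of each array, and grey lines join probes of 1 gene. The 12 dim probes at the left lie between -0.33 and 0.24, whereas the 14 bright probes of the same genes lie between -1.57 and -0.86.

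The only run of 20 bases or more shared with a probe of another gene was one of 22 bases between Rps20 and Gm6607. Only the probe that stands for each gene was compared, and only with other probes of the array, not with messages or pseudogenes. Cross-reading was therefore not settled for Rps20 or for any other gene of the family.

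The family lies among the brightest spots of the arrays, where the curve that corrects the dyes rests on few spots. Of the 31 core genes, 30 were in the brightest 10% of measured genes, and 26 of the 35 genes were in the brightest 2%. The brightest 10% had a median ratio of 0.013, or 0.057 without ribosomal proteins, and 11.1% of these other bright genes were lower by the 2-fold rule and 17.2% higher. In the brightest 2% without ribosomal proteins, 273 genes, the median was 0.34 on array 1 and -0.039 on array 2, with 12.8% lower by the 2-fold rule and 20.9% higher. The other bright genes thus had no median below 0 over both arrays, but in the brightest 2% they read lower on array 2 than on array 1, by 0.38 at the median. The core genes showed the same direction, with 28 of 31 lower on array 2, against 48.9% of all measured genes. The part of brightness in the gap between arrays was not tested.

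**Figure D3:**
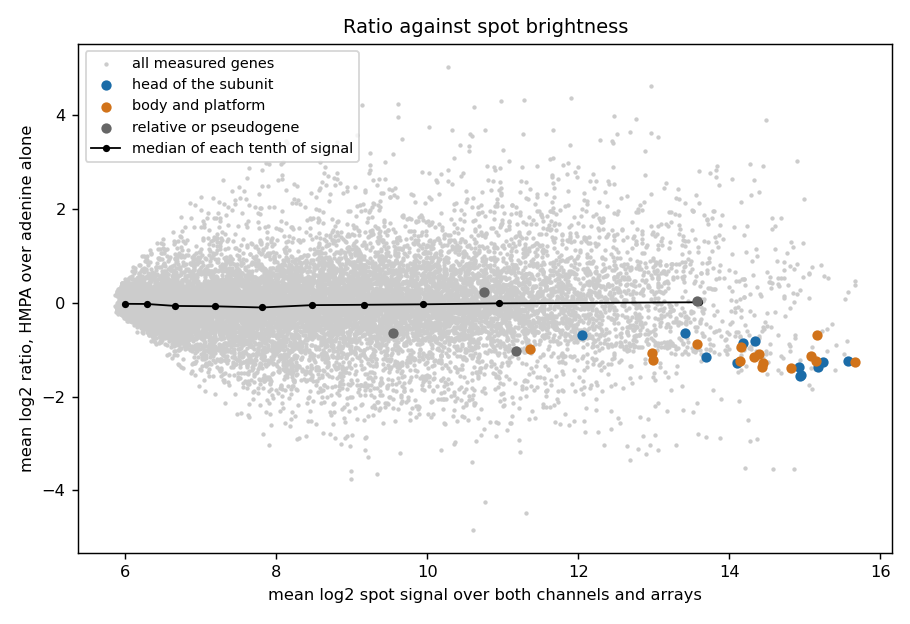
Mean log2 ratio of HMPA with adenine over adenine alone (vertical axis) against mean log2 spot signal over both channels and arrays (horizontal axis) for all 16698 measured genes in grey, with 31 of the 35 genes in colour. The black line joins the medians of 10 groups of genes ordered by signal and stays near 0, at 0.013 in the brightest, while the core genes drawn lie below it between -1.57 and -0.64.

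The order of the core genes among themselves did not carry over from array to array. Across the 31 genes the correlation of array 1 with array 2 was -0.040 (Pearson) and 0.0048 (Spearman), whereas across all 16698 measured genes it was 0.89 (Pearson). Genes are not independent replicates and both arrays may share the same RNA, so these are descriptions. The distance of each array from the mean had a median of 0.25 in the core genes and 0.11 in all genes. The gap of array 2 minus array 1 was more negative for brighter core genes, with a correlation of -0.41 (Pearson) and -0.45 (Spearman) with signal. Neighbours in the order such as Rps16, Rps24 and Rps28, with means from -1.37 to -1.36, did not differ beyond the distance of the arrays, whereas Rps12 lay below Rps9 on both. By array alone, 11 of the 31 were at least 2-fold lower on array 1, against 7.67% of all measured genes, and 27 on array 2, against 8.89%. Nothing is read from these counts either.

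The size of the difference depended on the normalisation. The mean ratio of all 31 core genes was below 0 under each of 11 alternative settings, which include each array alone, but the number below 0 on both arrays was 29 with a loess span of 0.7, and 30 with Feature Extraction's ratios and with a normexp offset of 16. The exceptions lay on array 1. Rps10 had 0.15 there with span 0.7 and 0.0079 with offset 16, and Rps2 had 0.042 with span 0.7 and 0.029 with Feature Extraction's ratios. With median centring in place of the loess curve the core median was -1.20 on array 1 and -1.18 on array 2. Of the 31 core genes, 14 were then lower on array 2, against 3279 of all 16698 measured genes. All genes had a median of -0.22 under that centring, in place of -0.037, and relative to it the core median was -0.90. By array, all genes had medians of -0.39 and -0.079, and relative to these the core median was -0.81 and -1.10. With the ratios of Feature Extraction, the scanner's own software, the core median was -0.59 on array 1 and -1.17 on array 2, and 8 core genes were lower by the 2-fold rule, where 14.7% of all genes were. With a wider loess span of 0.7 the medians were -0.68 and -1.44, with 11 core genes lower, where 7.79% of all genes were. Fitting the loess curve without any ribosomal protein spots gave -0.97 and -1.55 and left the count at 19. With the scanner's ratios the order of the core genes correlated at 0.40 (Pearson) between arrays.

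**Figure D4:**
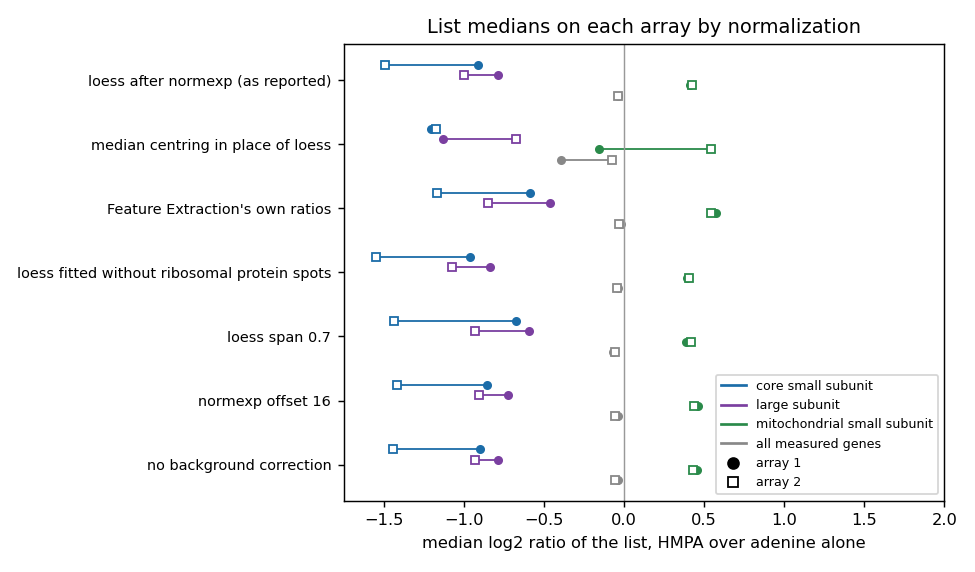
Median log2 ratio of HMPA with adenine over adenine alone (horizontal axis) of 4 gene lists on array 1 (filled circles) and array 2 (open squares) under 7 normalisations (vertical axis). The core small subunit median lies left of 0 in every row, from -0.59 to -1.55. As drawn, its gap between arrays closes only under median centring, where all genes lie at -0.39 on array 1 and -0.079 on array 2. Relative to all genes in that row, the core median is -0.81 and -1.10. The mitochondrial small subunit there crosses 0 on array 1 at -0.16, which is 0.23 above all genes.

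Translation partners were given from lists chosen by function. The 47 large subunit genes had a median of -0.79 on array 1, -0.998 on array 2 and -0.88 over both, 1.85-fold lower. By the 2-fold rule 17 were lower, against 7.72% of all genes, and 0 higher, but 5 were lower with Feature Extraction's ratios and 6 with a loess span of 0.7. By the 1.5-fold rule 37 were lower, against 16.3%, and 46 were below 0 on both arrays, against 42.9%. Rpl12 had the lowest mean, -1.49 ± 0.30, followed by Rplp1, a protein of the stalk, at -1.44 ± 0.17. The highest were Rpl27a at -0.15 ± 0.03 and Rpl14 at -0.37 ± 0.11. The cytosolic subunits thus had lower medians together, with overlapping ranges.

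The small subunit of the mitochondrial ribosome, which is built from other genes in the nucleus, did not share this. Its 30 genes had medians of 0.41 on array 1 and 0.42 on array 2, and 26 were above 0 on both arrays, against 35.9% of all genes. Under median centring the median was -0.16 on array 1 and 0.54 on array 2. All genes had -0.39 and -0.079 in that setting, and relative to these the mitochondrial median was 0.23 and 0.62. By the 1.5-fold rule 12 were higher, against 13.7% of all genes, and 0 lower, but 3 were higher with median centring. Mrps36 and Mrps21 were highest, at 0.96 ± 0.19 and 0.96 ± 0.33. Mrps18c at -0.15 ± 0.10 was lowest, and Mrps6 had -0.030 and 0.029.

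The 15 elongation factors and other genes with TOP messages had a median of -0.70, 8 were lower by the 1.5-fold rule, against 16.3% of all genes, and 14 were below 0 on both arrays, against 42.9%. When all probes of each gene were averaged, 3 were lower. Eef1b2, a nucleotide exchange subunit, had -1.01 ± 0.07 and Npm1, a nucleolar chaperone, had -0.93 ± 0.43. The highest of this list were Eif4b at -0.054 ± 0.13 and Tpt1 at -0.46 ± 0.36.

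The 25 initiation factors had a median of -0.22, with 3 lower by the 1.5-fold rule, a share below the 16.3% of all genes, and 0 higher, against 13.7%. Eif4a1, the helicase of the cap-binding complex, had -1.14 ± 0.25, while its paralog Eif4a2 had 0.59 ± 0.43. Eif4ebp1, the repressor of cap binding that mTORC1 phosphorylates, had -0.91 ± 0.29, and Eif3i had 0.45 ± 0.50. In this list most genes lay near 0 with single members on both sides.

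Genes that build the small subunit lay near the median of all genes. Of 34 assembly factors 32 were measured, with a median of -0.048, 4 lower and 1 higher by the 1.5-fold rule, again below the shares of all genes. Riok1, a kinase of late assembly, had -1.01 ± 0.13 and Nop58, a core protein of small nucleolar RNA particles, had -0.79 ± 0.01. Pno1, which binds the late precursor, had 0.60 ± 0.26 and Utp20, of the early precursor, had 0.40 ± 0.16.

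The 16 genes of RNA polymerase I and its factors, which make the ribosomal RNA, had a median of -0.17, with 3 lower by the 1.5-fold rule, near the 16.3% of all genes. Among them Myc, a transcription factor that drives ribosome genes, had -1.89 ± 0.17 and Ncl, nucleolin, had -1.06 ± 0.40. Polr1e had 0.44 ± 0.16 and Polr1d had 0.31 ± 0.46.

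Of 20 genes of mTORC1, the S6 kinases and the LARP family, 19 were measured. By the 1.5-fold rule 2 were lower and 2 higher, below the 16.3% and 13.7% of all genes. The median of the list was -0.034. The sign of that median turned with 1 probe choice and with array 2 alone. Ddit4, an inhibitor of mTORC1, had -2.55 ± 0.22 and Mtor itself had 1.18 ± 0.38. Rps6ka1 was the second lowest at -0.84 ± 0.42 and Larp4 the second highest at 0.65 ± 0.24. Phosphorylation, through which this pathway acts on Rps6, is not measured by an array.

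**Figure D5:**
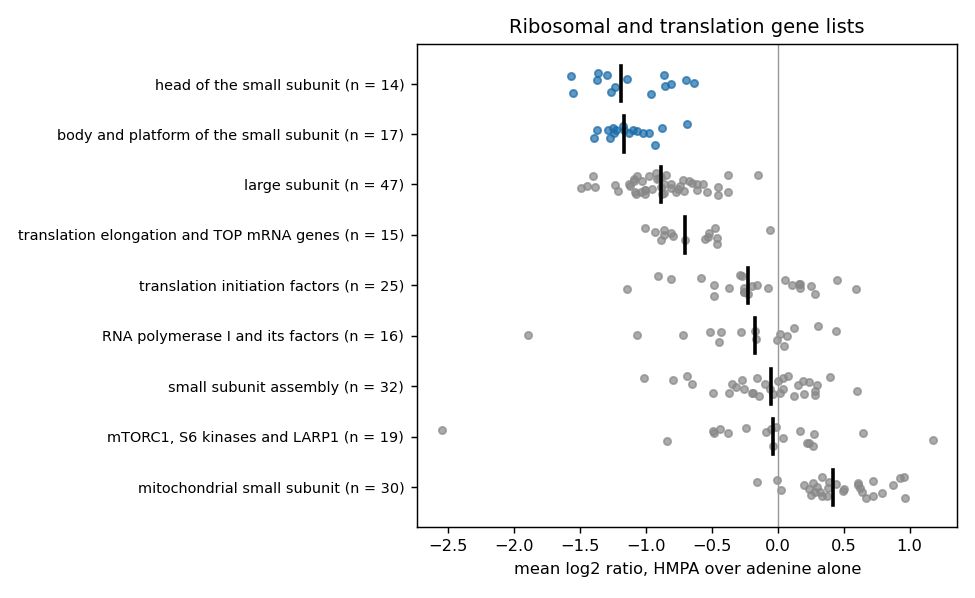
Mean log2 ratio of HMPA with adenine over adenine alone (horizontal axis) for each measured gene of 9 lists (vertical axis), with the black bar at the list median. The head and the body and platform of the small subunit lie at -1.19 and -1.16, the large subunit at -0.88, assembly factors at -0.048 and the mitochondrial small subunit at 0.42.

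The arrays read whole kidney, and markers of its cell types moved in different directions. By the 2-fold rule 7.72% of all measured genes were lower and 6.64% higher. Of 6 fibroblast markers 6 were lower by the 2-fold rule, and their summed log2 signal was 16.59 and 16.81 with adenine against 14.03 and 14.10 with HMPA. Of 5 macrophage markers 5 were lower, with sums of 15.84 and 16.12 against 13.16 and 13.25. Of the markers of other leukocytes 3 of 4 measured were lower, with sums of 12.68 and 12.84 against 9.94 and 10.38, and Cd79a was not measured. Of 5 proximal tubule markers 5 were higher, with sums of 13.98 and 15.01 against 17.40 and 17.72. Collecting duct markers were higher in 3 of 3, and thick limb and distal markers in 2 of 4. Of 4 injured tubule markers 3 were lower and Havcr1 higher. Neither of 2 podocyte markers and none of 3 endothelial markers met the rule in either direction. Of the 5 proximal tubule markers, 5 were in the brightest 10% of measured genes, which bears out the kidney label. The part of these cell types in the ratios of the ribosomal genes was not tested, and in bulk RNA fewer cells of a type and less RNA per cell cannot be told apart.

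The promoters of the family were read from RefSeq, which held 27 windows for 23 of the 31 core genes, each from 250 bases before to 50 bases after an annotated start on build GRCm38.p6. The other 8 had no entry. Around the start, 30 bases are shown for the 3 lowest and the 3 highest core genes with an entry, since the TOP motif would begin there. The first 15 bases precede the start, and capitals mark runs of at least 5 bases that are C or T. The windows lie at chr10:23787195-23787224 (Rps12, minus strand), chrX:102189377-102189406 (Rps4x, minus), chr7:28350674-28350703 (Rps16, plus), chr10:80292416-80292445 (Rps15, plus), chr17:24720048-24720077 (Rps2, plus) and chr17:27635230-27635259 (Rps10, minus).
Rps12: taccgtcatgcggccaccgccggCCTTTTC
Rps4x: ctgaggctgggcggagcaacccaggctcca
Rps16: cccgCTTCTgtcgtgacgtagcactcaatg
Rps15: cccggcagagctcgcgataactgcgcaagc
Rps2: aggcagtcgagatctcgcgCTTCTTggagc
Rps10: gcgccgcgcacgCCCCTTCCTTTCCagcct
Among the low genes such a run lies after the start in Rps12 and before it in Rps16, and among the high ones it lies after the start in Rps2 and across it in Rps10. A run that starts with C and goes on with at least 4 bases of C or T began within 5 bases of the annotated start in 11 of the 27 windows (40.7%), against 18.3% of 32851 windows of all genes. Anywhere in the 50 bases after the start it occurred in 23 of 27 (85.2%), against 51.3%, a reading chosen after the data were seen.

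Other motifs were searched on both strands over the whole window. CCGGAAG, a core of Ets family sites, was in 11 of 27 windows (40.7%), against 8.86% of all windows. GGGCGG, the GC box, was in 15 (55.6%), against 35.7%. AAGATGGCG, the core of YY1 sites, was in 1 (3.70%), against 1.40%. A match describes letters in the window, not a bound factor, and several windows can belong to 1 gene. Another motif that was searched is not reported here.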

How the data were processed

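Kidney RNA of mice fed adenine with or without HMPA was compared on 2 dye-swapped arrays, treated as a technical swap of 1 RNA sample per condition. The authors scanned and quantified the arrays with Feature Extraction, version 12.2.0.7 per the file headers and 9.5 per the submitters' processing notes. The deposited signal and background columns hold intensity per spot, not normalised, per the file headers. The deposited ratio column holds the log10 ratio of the red to the green channel, dye-normalised by Feature Extraction, and the deposited value table repeats these log10 ratios within 0.00498 and 0.00499 on the 2 arrays. The median spot intensity was 34.0 to 64.6 over a background of 22 to 25, and 57.9% to 67.9% of spots were well above background. The number of arrays limits the precision.

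Background was corrected with normexp (offset 50) and dyes with loess (span 0.3) in limma 3.58.1 under R 4.3.3. The rest used pandas 2.3.3, numpy 2.4.6 and matplotlib 3.10.9 in Python 3.11.15. Control and unreliable spots got no weight. Ratios were turned to HMPA over adenine and spots of a probe averaged. A probe was kept if Feature Extraction called it well above background on both arrays for 1 condition or the other (25138 of 41174), and the brightest kept probe stood for a gene. Of the kept probes 21374 were named through their accession in RefSeq, 1932 by symbol, 8 by an older symbol and 1824 by the name in the files.

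Normalised signals in the text are log2 after these steps. No scaling between the arrays was applied. Genes are called by size, not by a test. The rule names the core genes, the 5 lowest and 5 highest with all signals, all relatives and the 2 lowest and 2 highest genes of each list of partners. A few genes that it names are not reported here by name, but all 35 enter the counts and medians. The members and lists were chosen with earlier results of these data known. The steps were tested on simulated data. Of 50 spots set 2-fold lower, the mean measured was -0.91, and 15 were called by the 2-fold rule. Of 50 set 1.5-fold lower, 16 were called by the 1.5-fold rule. Of 12001 unchanged spots, 0 were called lower, so the rules miss many differences near their own size. Alternatives changed the normalisation, the background correction, the filter on dim probes, the probe choice and the arrays used.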

Additional observations from a re-analysis of the deposited data

How the results depend on the processing

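Every ratio is already the paired difference between conditions within an array, so no further pairing was possible. Of the values set beside the alternatives, the median of the 35 genes was -1.13, and with the mean over all measured probes of a gene it was -0.85, since dim probes near 0 then enter; after subtracting the median of genes of like signal it was -1.14. From 1 array alone this median ran from -1.29 to -0.91. The count lower by the 2-fold rule, 20, was 9 with Feature Extraction's ratios and 11 with a loess span of 0.7, and ran from 11 (array 1 alone) to 28 (array 2 alone). The large subunit median, -0.88, was -0.71 with Feature Extraction's ratios and -0.74 with span 0.7, and its count by the 2-fold rule, 17, was 5 and 6. The mitochondrial median, 0.42, was 0.17 with median centring, 0.40 with span 0.7, 0.56 by Feature Extraction, 0.48 with a normexp offset of 16 and 0.46 without background correction, and 0.41 to 0.42 from 1 array alone; its count higher by the 1.5-fold rule, 12, was 3 with median centring. The mTORC1 list median, -0.034, turned to 0.045 with the mean over all probes, and ran from -0.21 on array 1 alone to 0.084 on array 2 alone. Over all genes, 1289 were lower by the 2-fold rule, 2461 by Feature Extraction and 1973 with median centring; those higher by the 1.5-fold rule were 2285, 3765 and 1363. Relative to the median of all genes, the mitochondrial median was 0.39 with median centring, against 0.46 with the normalisation used here. The cause of these changes was not tested. Of the core genes, 10 of 31 moved by more than 1.5-fold under some alternative. The labels name no separate animals, so animals could not be compared. Without ribosomal proteins, the array medians lay 0.38 apart in the brightest 2% of genes and 0.036 apart in the brightest 10%.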
